A study of Mus musculus with 6 samples.

Results

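The Ms4a genes encode membrane proteins that cross the membrane 4 times, and they lie side by side on mouse chromosome 19. The 8 genes described here are Ms4a1, Ms4a3, Ms4a4b, Ms4a4c, Ms4a6b, Ms4a6c, Ms4a6d and Ms4a7, which the arrays measured with 11 of their 55681 probes. The family was chosen by the genotype difference of Ms4a6c in these same samples, so every genotype difference of a member below is a description and carries no test. The RNA came from freshly sorted mouse LSK cells, a fraction rich in blood stem and progenitor cells that lacks lineage antigens and carries Sca-1 and c-Kit. Samples 1, 3 and 5 were wild type, and samples 2, 4 and 6 were NIKaly/aly, which carry a defective NF-kB-inducing kinase in every cell. No treatment, age or strain is given in the labels. Each genotype had 3 samples on 6 one-colour arrays, and nothing says that these came from separate animals, so the spread between them may be technical.

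Members of this family are known as markers of separate blood cell types. Ms4a1 encodes CD20, the B cell antigen, and Ms4a3 is a gene of granulocyte-monocyte progenitors whose protein is known as HTm4. Ms4a4b is known from T cells, Ms4a4c and Ms4a6c from monocytes, and Ms4a6d and Ms4a7 from macrophages. Closely related copies such as Ms4a4b and Ms4a4c, or Ms4a6b and Ms4a6c, resemble each other in sequence, so what each probe binds matters for reading the values. Whether a probe also matches the transcript of a related copy was not tested, so the values of these genes may not be separate.

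The sequences of the 8 probes tested are shown because 3 of them measure Ms4a4c and do not agree. Each probe is 60 bases long and is printed 5′ to 3′. For Ms4a6c and the first Ms4a4c probe all 60 bases are given, for the repeat probe bases 7 to 36, and for the others bases 1 to 30. Capitals mark a run of TG repeats. The deposited positions are on the mm9 build, and no gene annotation of that build was used here.
Ms4a6c (chr19:11545580-11545639, + strand): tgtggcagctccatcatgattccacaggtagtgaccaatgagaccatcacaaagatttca
Ms4a4c, first probe (chr19:11493486-11493545, +): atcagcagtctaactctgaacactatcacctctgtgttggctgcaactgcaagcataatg
Ms4a4c, second probe (chr19:11500973-11501032, +): caacactttaacatcctccattaattgtat
Ms4a4c, repeat probe (chr19:11500839-11500898, +): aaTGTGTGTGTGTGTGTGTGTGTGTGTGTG
Ms4a4b, first probe (chr19:11537629-11537688, +): cacttcattgcactggcttttgaggtgaat
Ms4a4b, second probe (chr19:11532299-11532358, +): gatccctgtccattgcagcaggagtgacac
Ms4a3 (chr19:11704055-11704114, - strand): agatgaaatgcaatccttctgtcatggaaa
Ms4a1 (chr19:11325367-11325426, -): gctgtgctttgagattctttccaaatggca

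From 33.1% to 45.6% of an array's 59305 non-control spots stood well above background, and precision is limited by having 3 arrays per genotype. Kit and Ly6a (Sca-1), which define the sorted fraction, were well above background on all 6 arrays. Every level below is a log2 value relative to the 75th percentile of the same array, and on it Kit lay between 4.65 and 5.45 and Ly6a between 1.503 and 3.67. Wild type 1 and NIKaly/aly 2 stood apart from the other arrays by their globin signal, with Hbb-b1 at 7.61 and 6.51 against 2.47 to 3.18. Quality control in the scanner's header asked for evaluation of 2 arrays, wild type 1 and NIKaly/aly 6. Arrays of consecutive sample numbers resembled each other, so differences are also given within the pairs 1 and 2, 3 and 4, and 5 and 6. The first 2 pairs lie in 1 row of the slide and the last pair in the other row, so the last pair is also the value within that row. No gene passed the genotype test at an adjusted p under 0.05 (0% of 15682 genes; limma, Benjamini-Hochberg, smallest adjusted p = 0.99998), and 208 genes had an unadjusted p under 0.05. Fitted probe by probe, 0 of 21217 passed and 271 had an unadjusted p under 0.05 in limma.

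Of the 11 probes, 4 were well above background on all 6 arrays, 4 on 3 to 5 arrays, 2 on 1 array and 1 on no array. The first 8 passed the filter of at least 3 arrays and stand for 5 genes, namely Ms4a1, Ms4a3, Ms4a4b, Ms4a4c and Ms4a6c. Ms4a6b was well above background only in wild type 3, Ms4a7 only in NIKaly/aly 2, and Ms4a6d nowhere. The 5 genes thus give no account of the whole family. The second Ms4a4c probe passed the filter through wild type alone, with 3 of 3 arrays there and 0 of 3 in NIKaly/aly, so its groups had to differ.

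**Figure D1:**
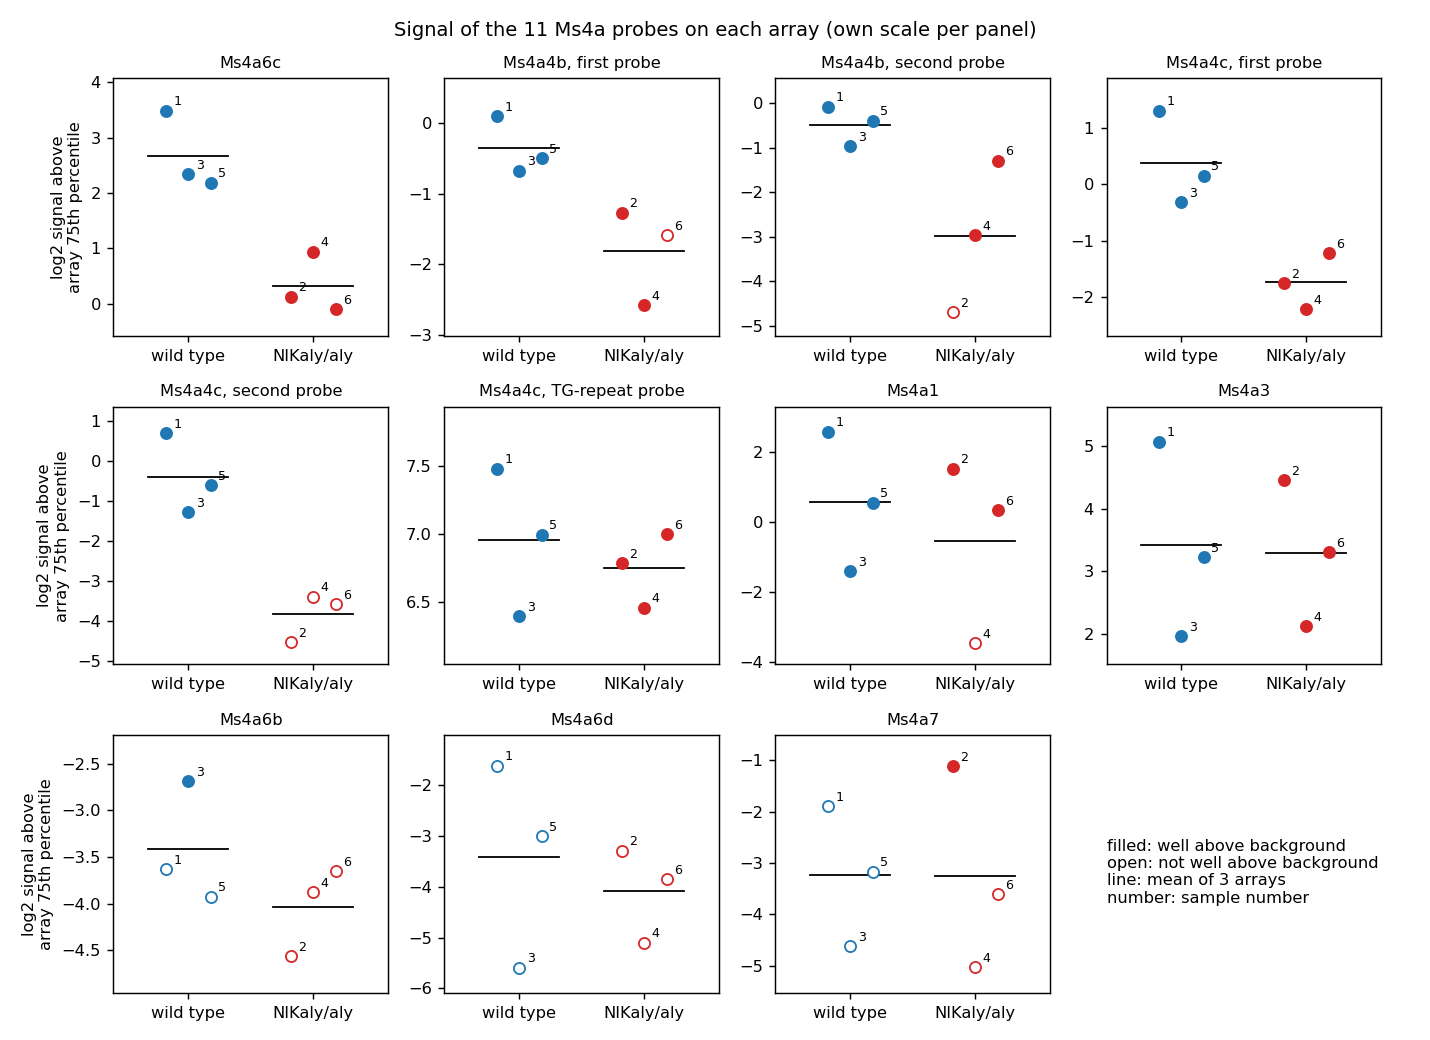
Level of each of the 11 Ms4a probes on each array (log2, relative to the 75th percentile of that array), with a separate scale in each panel; points are single arrays labelled by sample number, lines are means of 3 arrays, and open points are not well above background. The wild-type points of Ms4a6c, of both Ms4a4b probes and of the first and second Ms4a4c probes lie above every NIKaly/aly point, while the groups overlap for the repeat probe, Ms4a1 and Ms4a3.

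Ms4a6c, the gene that led to the choice of the family, was well above background on all 6 arrays. Wild type 1, 3 and 5 read 3.49, 2.33 and 2.18. NIKaly/aly 2, 4 and 6 read 0.12, 0.94 and -0.10. Every wild-type array was above every NIKaly/aly array, and the lowest wild-type level was 1.25 above the highest NIKaly/aly level. The difference was -2.35 ± 0.44 (SE, n = 3 per genotype), which is 5.10-fold lower in NIKaly/aly. It was -3.36 in samples 1 and 2, -1.40 in samples 3 and 4 and -2.29 in samples 5 and 6. The direction was thus the same in every pair, with the largest size in the pair of high globin signal, and without that pair the difference was -1.84. Among all genes tested, 19 including Ms4a6c differed by this much or more in that direction. A single probe measured it.

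Ms4a4b, the neighbouring gene, had 2 probes. With the first, the wild-type samples 1, 3 and 5 read 0.09, -0.68 and -0.50, against -1.27, -2.57 and -1.59 for NIKaly/aly 2, 4 and 6. With the second, they read -0.07, -0.97 and -0.39 against -4.69, -2.97 and -1.29. For both probes each wild-type array was above each NIKaly/aly array. The signal was dim, so that the first probe was not well above background in NIKaly/aly 6 and the second not in NIKaly/aly 2. The first probe differed by -1.45 ± 0.45 (SE), with -1.36, -1.90 and -1.08 in the 3 pairs. The second differed by -2.51 ± 0.81, with -4.62, -1.999 and -0.90, and by -1.65 without NIKaly/aly 2. The probes thus had the same direction in every pair and differed in size, most in samples 1 and 2, where the second probe was not well above background in NIKaly/aly. With normexp in place of the scanner's background correction, the differences shrank to -0.67 and -0.86.

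Ms4a4c gave 2 answers. Its first probe, well above background on all 6 arrays, read 1.30, -0.32 and 0.15 for the wild-type samples 1, 3 and 5, against -1.75, -2.22 and -1.22 for NIKaly/aly 2, 4 and 6. The second probe read 0.68, -1.28 and -0.62 against -4.52, -3.40 and -3.58 in the same order. In both, the wild-type arrays lay above all NIKaly/aly arrays. The first probe differed by -2.11 ± 0.49 (SE), 4.32-fold lower in NIKaly/aly, with -3.06, -1.90 and -1.37 in the 3 pairs and -1.13 with normexp. With the scanner's background correction the second was at least 4.29-fold lower. This bound sets the wild-type mean against, on each NIKaly/aly array, whichever is higher, the probe's own level or the lowest level of any probe well above background. With normexp the difference of the second probe was -0.96, so the bound does not hold under that correction. Measured means of the second probe were -0.41 in wild type and -3.84 in NIKaly/aly.

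The repeat probe of Ms4a4c read 7.48, 6.39 and 6.993 for wild type and 6.79, 6.46 and 6.999 for NIKaly/aly, with overlapping groups. Its difference was -0.21 ± 0.39 (SE), and -0.70, 0.06 and 0.01 in the 3 pairs. Its processed signal was 6494 to 18868, while the first probe of the same gene had 21.8 to 180 and the second 4.23 to 92.4. As the brightest probe it is the one that stands for Ms4a4c where a gene is represented by its brightest probe. Its TG run of 28 bases is shared in kind by other probes. On the array 71 probes (0.128%) hold a TG run of at least 16 bases, read on the printed strand, and 70 of them were well above background on all 6 arrays, against 28.4% of all probes. Their differences had a median of -0.19 and an SD of 0.081, from -0.44 to 0.16. The Ms4a4c repeat probe thus lay within the range of these probes and outside the values of the other 2 Ms4a4c probes. Over the 6 arrays it followed the median of the other 70 with a Pearson r of 0.93, a description over arrays that share the pair structure. What the repeat probe binds was not tested.

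**Figure D2:**
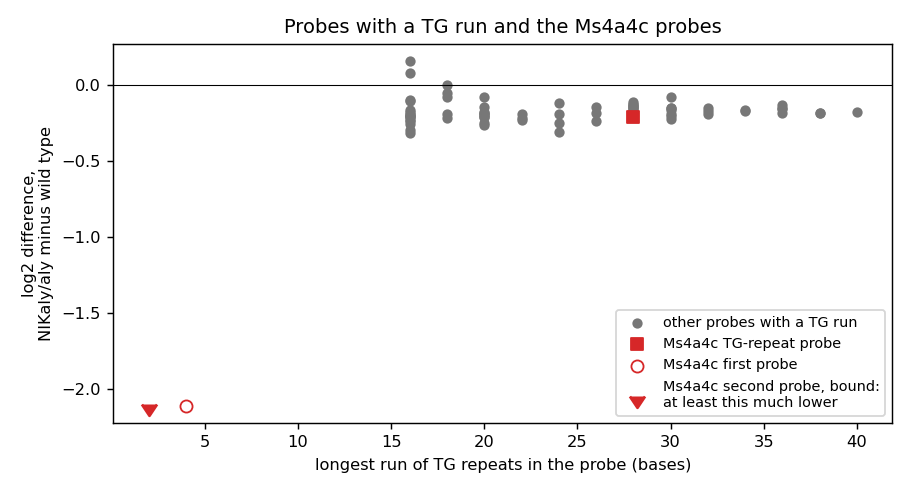
Genotype difference (log2, NIKaly/aly minus wild type) against the longest run of TG repeats in a probe, in bases, for the 70 probes with a run of at least 16 bases that were well above background on all 6 arrays, with the other Ms4a4c probes; the arrowhead marks a bound. The repeat probe of Ms4a4c, at -0.21, sits in the band of the other repeat-bearing probes. With the scanner's background correction, the first Ms4a4c probe lies at -2.11 and the second at -2.10 or lower.

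Read with the brightest probe of each gene, 2 of the 5 tested genes, Ms4a4b and Ms4a6c, were lower in NIKaly/aly without overlap of the groups, where 1.89% of all 15682 genes were, and 0 passed the adjusted test in limma. Read by probe, 5 of 8 were lower without overlap, where 2.01% of the 21217 probes were. Both counts come from the contrast that led to the family, from probes that share a target and, for 1 of them, from a probe that passed the filter through wild type alone, so nothing is read from them. The median difference of the 5 genes was -1.11, that of Ms4a1, against -0.01 over all genes, of which 51.5% were lower. With 1 array left out, that median ranged from -1.72 without NIKaly/aly 2 to -0.06 without NIKaly/aly 4, and it was -0.11 without wild type 1. With normexp it was -0.43.

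**Figure D3:**
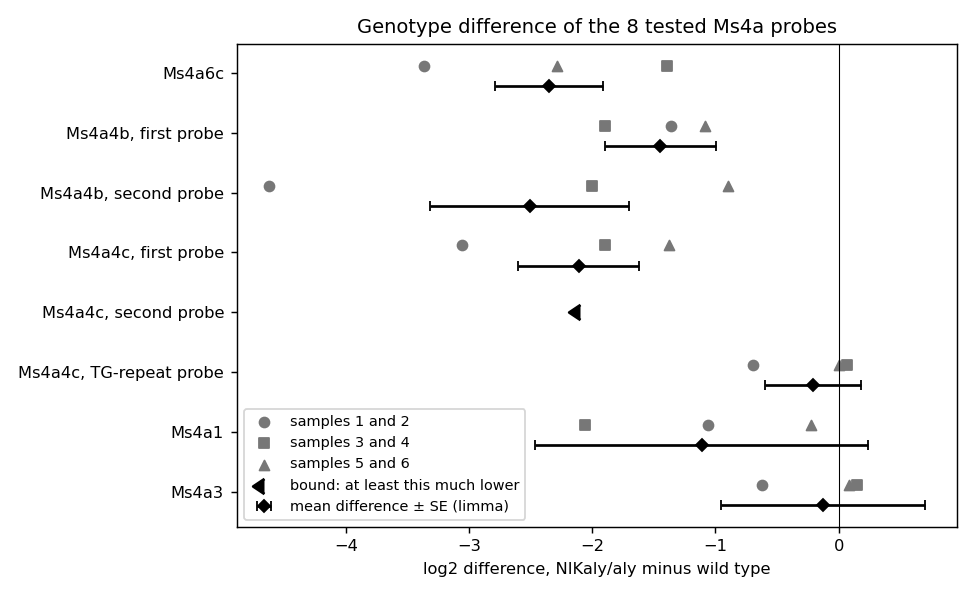
Log2 difference, NIKaly/aly minus wild type, of the 8 tested Ms4a probes: the arrowhead is the bound for the second Ms4a4c probe, diamonds with bars are the mean difference ± SE from limma with 3 arrays per genotype, grey symbols the difference within each pair of consecutive samples. For Ms4a6c, both Ms4a4b probes and the first Ms4a4c probe all 3 pairs lie below 0, as they do for Ms4a1, which has a wider error.

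Ms4a1, the CD20 gene, read 2.57, -1.40 and 0.55 for wild type 1, 3 and 5, and 1.52, -3.46 and 0.33 for NIKaly/aly 2, 4 and 6. The groups overlapped, and NIKaly/aly 4 was the array where the probe was not well above background. The genotypes differed by -1.11 ± 1.36 (SE), less than the SD of either (1.98 in wild type and 2.597 in NIKaly/aly). With 1 array left out, the value was 0.35 (NIKaly/aly 4), -0.11 (wild type 1), -2.10 (wild type 3) or -2.14 (NIKaly/aly 2). Within the pairs it was -1.06, -2.06 and -0.22, so both arrays of a pair were high or low together. In a list of 20 other B cell genes 15 were tested, of which 14 had a difference below 0 and 1 above it. Their pair medians of -0.81, -1.84 and 0.25 had the direction of Ms4a1 in the first 2 pairs and the opposite direction in samples 5 and 6. Among them Cd79a, a chain of the B cell receptor complex, differed by -1.36 ± 1.20 (SE), Blnk, an adaptor of that receptor, by -0.67 ± 0.52, and Faim3 by -2.73 ± 1.72. Faim3 was well above background on 5 arrays, and its level in NIKaly/aly 4, -5.38, was near background. Their summed level, in units of the array's 75th percentile, was 68.6 to 224 in wild type and 43.9 to 126 in NIKaly/aly, while Pax5, Blk, Fcer2a, Cr2 and Fcrl1 did not pass the filter. Mature B cells carry a lineage antigen and should be absent from such a sort, and their part in the Ms4a1 values was not tested. In RNA from sorted bulk samples, fewer cells of a type and less RNA per cell cannot be told apart.

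Ms4a3 read 5.07, 1.97 and 3.22 for wild type 1, 3 and 5, and 4.45, 2.12 and 3.30 for NIKaly/aly 2, 4 and 6. The highest levels were those of samples 1 and 2 and the lowest those of samples 3 and 4, in both genotypes. The genotype difference of -0.13 ± 0.83 (SE) was far below the 3.099 between its highest and lowest array. Within the pairs it was -0.62, 0.15 and 0.08, and it was 0.70 without wild type 1 and -0.85 without wild type 3. Other early myeloid genes (Mpo, Cebpa and others, 15 with a probe and 14 tested) were lower in 13 of 14 cases, with pair medians of -0.61, -0.25 and -0.36. Mpo, the myeloperoxidase gene, differed by -0.72 ± 0.51 (SE), Cebpa, a transcription factor of granulocyte fate, by -0.69 ± 0.36, and Hk3 by -0.83 ± 0.43. Ms4a3 and the list's median thus had nearly the same value in samples 1 and 2, while in the other pairs Ms4a3 lay slightly above 0 and the median below it. The list's summed level was 1040 to 2413 in wild type and 774 to 1428 in NIKaly/aly.

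**Figure D4:**
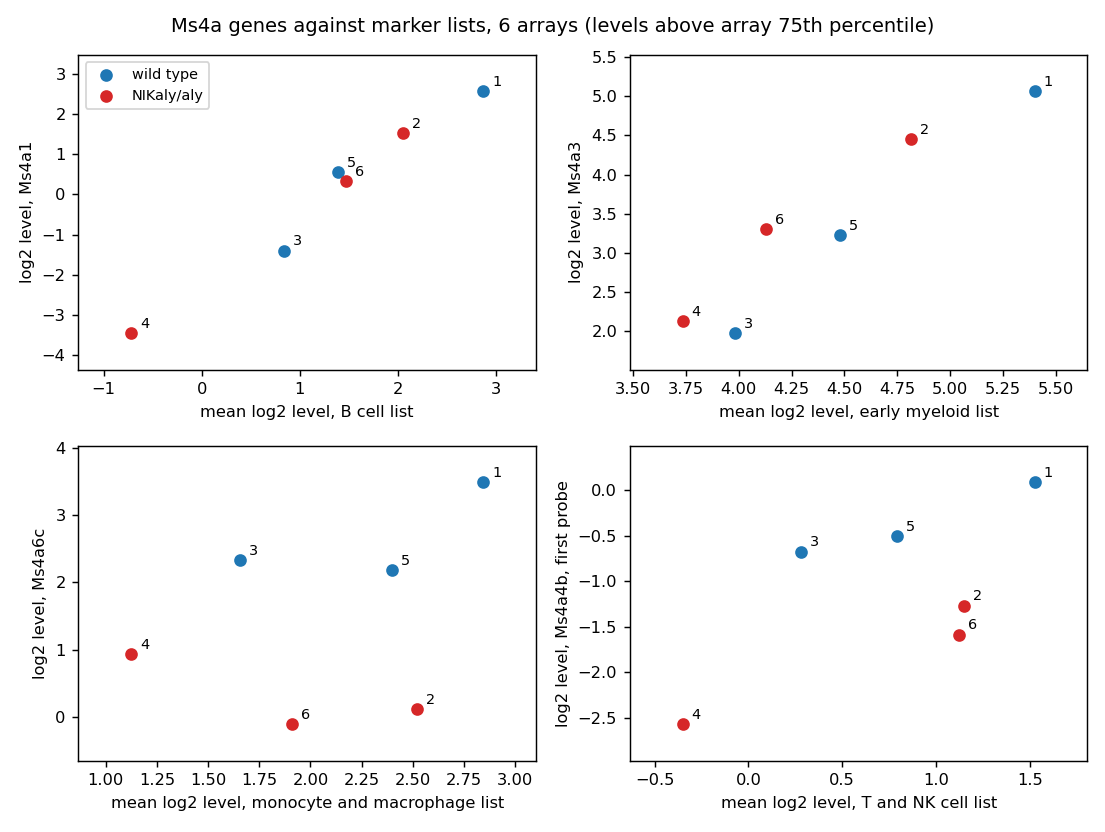
Log2 level of Ms4a1, Ms4a3, Ms4a6c and the first Ms4a4b probe against the mean log2 level of a marker list on the same array, for 3 wild-type (blue) and 3 NIKaly/aly (red) arrays labelled by sample number. Ms4a1 is higher where the B cell list is higher in both genotypes. For Ms4a6c every NIKaly/aly array lies below every wild-type array. The mean of the monocyte and macrophage list was 1.12 in NIKaly/aly 4, below the lowest wild-type mean of 1.65. What part these cell types have in the values was not tested.

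The monocyte and macrophage list, the cell types in which Ms4a6c is best known, had 25 genes with a probe and 20 tested, 18 lower and 2 higher, with a median of -0.41. In the pairs its median was -0.47, -0.69 and -0.47, where Ms4a6c differed by -3.36, -1.40 and -2.29. Csf1r, which encodes the M-CSF receptor, stood at -1.17 ± 0.33 (SE), and Ly86, also known as MD-1, at -1.20 ± 0.34. Cd14, the co-receptor for bacterial lipopolysaccharide, read higher by 2.04 ± 0.60. The list's summed level was 185 to 488 in wild type and 150 to 343 in NIKaly/aly, and C1qa, Mrc1, Cd163 and Fcgr1 did not pass the filter. Its part in the Ms4a6c values was not tested. For Ms4a4b, the T and NK cell list gave 7 of 17 tested genes higher and 10 lower, with pair medians of -0.55, -0.39 and 0.41, while both Ms4a4b probes were lower in all 3 pairs. Klrb1c and Klrd1, receptor genes of NK cells, differed by -1.17 ± 0.52 and -1.23 ± 0.67 (SE), and Cd28, a co-stimulatory receptor of T cells, by 0.85 ± 0.66. Klrb1c was well above background on 4 arrays and Klrd1 on 3, so the sizes of these 2 differences rest partly on values near background. Its summed level was 93.9 to 271 in wild type and 105 to 224 in NIKaly/aly, and Cd8a, Cd8b1 and Ncr1 did not pass the filter. Interferon response genes, listed because Ms4a4c is known to respond to interferon, were lower in 12 of 17 cases, with pair medians of -0.01, -0.61 and -0.61 and a summed level of 95.1 to 150 in wild type and 64.7 to 122 in NIKaly/aly. Usp18, Oasl1 and Rsad2, all induced by interferon, differed by -1.06 ± 0.41, -0.78 ± 0.29 and -0.77 ± 0.29 (SE). The first Ms4a4c probe differed by -3.06, -1.90 and -1.37 in those pairs, and a link between it and the interferon genes was not tested. Lists of other blood cell types, of which mature neutrophils and erythroid cells should be removed by a lineage gate, had medians of 0.20 (dendritic cells, 6 of 8 tested genes higher), -0.16 (mature neutrophils, 12 of 14 lower), -0.18 (mast cells, basophils and eosinophils, 8 of 10 lower) and -0.26 (erythroid cells, 6 of 8 lower). Genes that mark LSK cells themselves had a median of 0.18, with 7 of 11 higher and 4 lower. Their summed level was 322 to 365 in wild type and 387 to 413 in NIKaly/aly. Ly6a (Sca-1), among the 4 lower, differed by -0.68 ± 0.46 (SE). In the monocyte and macrophage list 4 of 20 tested genes were lower without overlap of the groups, and in the interferon list 4 of 17. In the T and NK cell list it was 1 of 17, in the dendritic cell list 1 of 8 and in the rest 0. Among all genes the share was 1.89%. Higher without overlap were Cd14, Cxcl10 of the interferon list and Procr of the LSK list. The share of all genes higher without overlap was not counted, so nothing is read from these genes. No gene of any of these lists passed the adjusted test in limma.

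The members that were not measured well enough for the fit had these values. Ms4a6b, the gene next to Ms4a6c, had a processed signal of 34.8 in wild type 3, the only array where it was well above background, and 3.79 to 13.7 on the others. Ms4a7 had 58.0 in NIKaly/aly 2 and 4.16 to 12.6 elsewhere. Ms4a6d had 3.52 to 15.3, on no array well above background. Of 12 further Ms4a genes with 15 probes, among them Ms4a2, the beta chain of the high-affinity IgE receptor, 14 probes were not well above background on any array. The exception was Ms4a4a in wild type 1 and 5. The related genes Tmem176a and Tmem176b, which lie on chromosome 6, were well above background on all arrays and differed by -0.04 ± 0.39 and -0.04 ± 0.41 (SE).

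The probes of Ms4a4c, Ms4a4b and Ms4a6c, grouped here because of their values, lie between 11493486 and 11545639 on mm9, within a family that spans 667 kb from Ms4a10 to Ms4a3. Within that span and 500 kb to either side, 24 other entries were tested, 17 lower and 7 higher, with a median of -0.08. An entry without a gene symbol at 11513253, between the Ms4a4c and Ms4a4b probes, stood at -0.32 ± 0.41 (SE), with overlapping groups. Ms4a1, nearer the start of the chromosome, stood at -1.11, as described above. The nearest before the family was Ccdc86, at -0.38 ± 0.39 (SE), and the nearest after it Oosp1, at -1.81 ± 0.76, with overlapping groups. Oosp1 read -1.10, -1.77 and -2.61 for wild type and -4.76, -2.41 and -3.76 for NIKaly/aly. Of the 24, 1 was lower without overlap, Mrpl16, a mitochondrial ribosomal protein gene, at -1.21 ± 0.43. Stx3, a syntaxin gene, was the 1 entry higher without overlap, at 0.53 ± 0.29. Mrpl16 and Stx3 were picked out from their values, and the share of all genes higher without overlap was not counted.

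**Figure D5:**
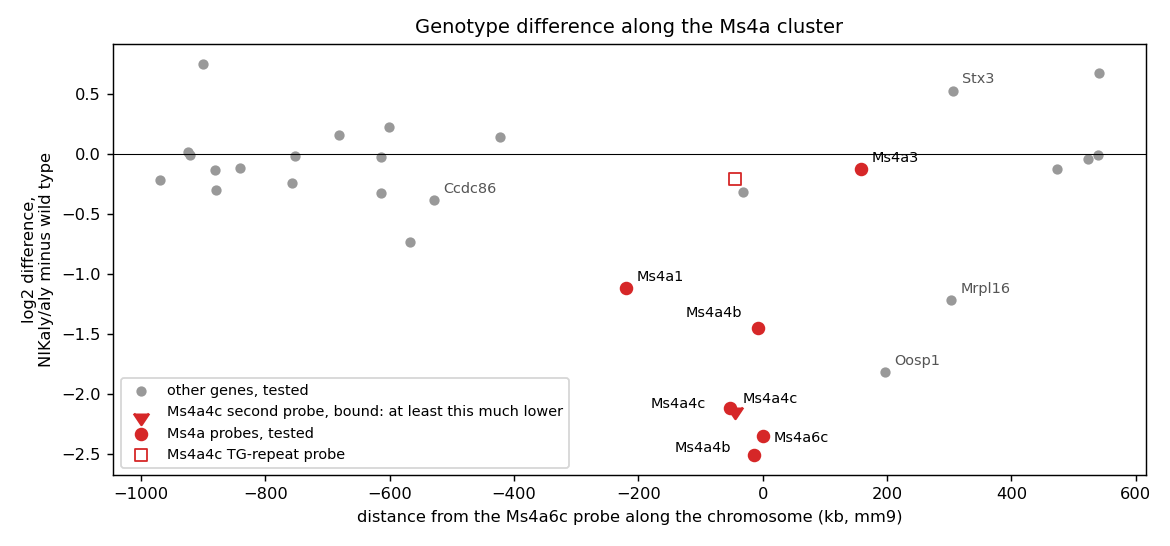
Genotype difference (log2, NIKaly/aly minus wild type) of tested probes against distance from the Ms4a6c probe in kb on mm9; red points are Ms4a probes, the open square the repeat probe of Ms4a4c, the arrowhead the bound for its second probe and grey points other entries. The Ms4a6c probe, both Ms4a4b probes and the first Ms4a4c probe lie between -2.51 and -1.45, and the 24 grey points between -1.81 and 0.75. The lowest grey point, Oosp1, had signal near background.

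Levels over the 6 arrays were also compared among the members and with all tested genes by Pearson's r, as a description over arrays that share genotype and pair structure. Ms4a6c had an r of 0.87 with the first Ms4a4c probe, 0.96 with the second (whose NIKaly/aly levels were not well above background), 0.75 and 0.72 with the Ms4a4b probes, 0.24 with Ms4a1 and 0.17 with Ms4a3. Ms4a1 and Ms4a3 had an r of 0.92 with each other. The genes most like Ms4a6c were Zfp703 (r = 0.99), Rfng (0.99) and Plcxd1 (0.98). For the first Ms4a4b probe they were Pyhin1 (0.99), an interferon-inducible gene, Apobec3 (0.99), a cytidine deaminase that restricts retroviruses, and Pik3cd (0.97), a lipid kinase subunit. Apobec3 was also among the 3 most like the first Ms4a4c probe (0.98), after Siglec5 and Tesk1. Apobec3 read 4.35, 3.33 and 3.57 for wild type and 2.57, 1.68 and 2.56 for NIKaly/aly, without overlap. Ms4a1 was most like Ccl5 (0.998), a chemokine gene, Spib (0.997), a transcription factor of B cells that is in the B cell list, and Pilrb1 (0.996). Ms4a3 was most like Actg1 (0.9995), an actin gene, and S100a11 (0.997). The repeat probe was most like Mtmr4 (0.999), Cyp2u1 (0.998) and Itsn1 (0.998). The probes that stood for Cyp2u1 and Itsn1 hold a TG run too.

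The promoters of Ms4a6c, Ms4a4b and Ms4a4c are shown for comparison of their sequence, as the 250 bases before the start from RefSeq on GRCm38.p6. These genes were grouped because of their values, and Ms4a4c read lower without overlap with its first and second probes but not with its repeat probe. Searched on both strands were GGAAGT, an ETS-type core that PU.1 can bind, TTGCNNAA of the C/EBP type, GAAA followed after any 2 bases by GAAA (the interferon-response type), GATAAG of the GATA type, and the kappaB consensus. Capitals mark the matches.
Ms4a6c (chr19:11469118-11469367, + strand): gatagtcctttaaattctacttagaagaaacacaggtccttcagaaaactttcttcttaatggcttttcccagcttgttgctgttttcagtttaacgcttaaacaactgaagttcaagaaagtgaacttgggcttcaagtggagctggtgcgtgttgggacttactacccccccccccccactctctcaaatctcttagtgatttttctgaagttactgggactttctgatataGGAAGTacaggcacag
Ms4a4b (chr19:11443308-11443557, +): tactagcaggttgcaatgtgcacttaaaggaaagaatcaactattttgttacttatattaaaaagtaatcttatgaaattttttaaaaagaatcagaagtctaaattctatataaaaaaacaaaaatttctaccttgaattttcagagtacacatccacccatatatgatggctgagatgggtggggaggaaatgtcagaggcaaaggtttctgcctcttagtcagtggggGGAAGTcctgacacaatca
Ms4a4c (chr19:11407411-11407660, +): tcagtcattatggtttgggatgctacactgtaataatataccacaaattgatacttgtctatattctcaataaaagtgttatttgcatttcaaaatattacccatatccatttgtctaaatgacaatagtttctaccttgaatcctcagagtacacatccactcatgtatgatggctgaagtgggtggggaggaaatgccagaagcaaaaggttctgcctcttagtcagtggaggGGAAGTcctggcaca

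Each of these 3 promoters held 1 match, GGAAGT, whose first base lay 16 bases before the start in Ms4a6c, 19 in Ms4a4b and 15 in Ms4a4c. The Ms4a4b and Ms4a4c windows were 70.9% identical in a global alignment, so their matches are not independent. Either was 48.9% to 49.3% identical to that of Ms4a6c, within the 44.2% to 52.6% of the other pairs of member windows. Whether the Ms4a6c match is independent of theirs was not tested. Of the 6 members with a promoter in the table, Ms4a3, Ms4a6b and Ms4a7 also held GGAAGT. It lay 55 bases before the start in Ms4a3, 85 and 43 in Ms4a6b, and 15 in Ms4a7. The Ms4a6b match at 43 and the Ms4a7 match were on the opposite strand. The Ms4a6b match at 85 stands in the same stretch of letters as the Ms4a6c match, so these are not independent of each other. With Ms4a6b set aside, Ms4a3 and Ms4a7 still held a match near the start, so it was not particular to the 3 genes shown. Across all 32851 promoters 19.7% held GGAAGT, 9.56% TTGCNNAA, 2.98% the interferon-response type, 6.55% GATAAG and 7.25% the kappaB consensus. A match is a description of letters in the window, and no binding was measured here.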

How the data were processed

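RNA of 6 LSK samples was labelled with Cy3 and hybridised singly. The deposited intensity per spot was made by the authors in Feature Extraction (version 10.7.3.1 in the file headers) and includes background subtraction and a surrogate for low values. The authors' deposited table is a signal equal to that value divided by the array's median, so its column medians are 1, and it repeats median scaling. From these, log2 processed signal minus each array's 75th percentile was computed. Outlier-marked spots were left out, none was saturated, and all arrays share 1 slide and 1 scan. Probes well above background on at least 3 arrays were kept (21239, of which 22 lacked a value), and the brightest probe stood for a gene. The genotype test was limma's (version 3.58.1, R 4.3.3; lmFit, eBayes with trend, 4 residual degrees of freedom, two-sided, Benjamini-Hochberg); SEs of members come from the probe-by-probe fit. The fit was tested on simulated data.

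The members, gene lists and alternatives were chosen with earlier results of these data known. The rule for named genes took all members, up to 3 genes of a list with the smallest unadjusted p (given for the lists set beside a member), the 3 genes most like each tested member, and the nearest flanking genes; some items are not reported here. Names are those of the files. The repeat-run and probe-by-probe readings were chosen after the values were seen. Alternatives covered scaling, background, filters, probes, blocks, weights and arrays. No protein sequence was used here.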

Additional observations from a re-analysis of the deposited data

How the results depend on the processing

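Of 21 alternatives, the difference of Ms4a6c stayed below 0 in 21 (-2.74 to -1.58) and that of Ms4a4b in the 20 that covered it (-1.98 to -0.67). The value nearest 0 came for Ms4a6c with array weights and for Ms4a4b with normexp, whose offset of 50 draws dim signals together. Ms4a1 (-2.19 to 0.35), Ms4a3 (-0.85 to 0.70) and Ms4a4c (-2.11 to 0.05) did not keep their sign. The median of the 5 genes, -1.11, was -0.21 with only probes well above background on all arrays, which leaves 3 genes, and -1.92 with a gene's probes averaged; leaving out 1 array gave -1.72 to -0.064. Genes past the adjusted p numbered 0, and 10 with median scaling, 1 with normexp, 2 with no filter, 2 with consecutive pairs as a block, 5 with array weights, 1379 with slide column as a random block and 0 to 1 leaving out 1 array (1 without wild type 3). The random block had a correlation of -0.88 within a column, which lies within a genotype. With median scaling 35.4% of genes were lower, against 51.5%. Leaving out probes with a long TG run gave Ms4a4c -2.11 and a median of -1.45. The labels give no sample number to both genotypes, so the consecutive pairs, whose block leaves 2 residual degrees of freedom, are a reading of the data. Signal near background limits Ms4a4b, the second Ms4a4c probe, Ms4a6b, Ms4a6d and Ms4a7, and among the other genes named Oosp1, Klrb1c and Klrd1. It also limits Ms4a1 in NIKaly/aly 4, and the Ms4a1 difference was -0.43 with normexp. The first Ms4a4c probe, though well above background on all arrays, was dim in NIKaly/aly. Its processed signal there was 21.8 to 43.3, and its difference shrank to -1.13 with normexp.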

Other observations

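The repeat probe of Ms4a4c belongs to a set that stands for 68 genes in the table of brightest probes, since their brightest tested probe holds a TG run of at least 16 bases. For 46 of them no other kind of probe was tested. The other 22 genes had 35 further tested probes, of which 3 differed from the repeat probe's difference by over 1 on the log2 scale: both other Ms4a4c probes and 1 of Itsn1, an endocytosis scaffold gene, at 0.79 ± 0.43 (SE) against -0.24. These genes were named after their values were seen.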
